A study of Homo sapiens with 4 samples.

Results

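The chemokines and their classical receptors were examined in OVSAYO cells, an established line of human ovarian clear cell carcinoma. A gene was a member when the RefSeq accession of its array spot led to a symbol made of CXCL, CCL, CX3CL, XCL, CXCR or CCR and a number. This gave 55 genes, 39 ligands and 16 receptors, measured by 73 probes, of 17721 genes with a symbol and 41000 probes on the array. Of 57 protein-coding RefSeq symbols that meet the rule, CCL3 and CXCL16 had no matched spot and were not analysed here. The study asked which genes activated by chemical hypoxia depend on the transcription factor Sp1. Cells received a negative control siRNA with a scrambled sequence (NS-si) or a siRNA against Sp1 (Sp1-si) and, by the labels, were cultured for 40 h. The paper on these arrays states a shorter culture. Cells were then exposed for 4 h to 0.5 mM CoCl2, a hypoxia-mimicking agent (NS-si → CoCl2 and Sp1-si → CoCl2), or were not. By the paper, cells without CoCl2 received a vehicle control, and they are called untreated here. Each of these 4 conditions was 1 culture on 1 single-colour array, and all 4 arrays lay on 1 slide. No difference between conditions could therefore be tested, and every ratio below compares 2 arrays. The labels name no cell type in the cultures other than OVSAYO. In such a bulk measurement, fewer cells with a transcript and less transcript per cell cannot be told apart.

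Chemokines are small secreted proteins that attract cells along a gradient, and fractalkine (CX3CL1) is made as a membrane-bound form that can be shed. They are grouped by the spacing of their first cysteines into CXC, CC, CX3C and XC families, and bind receptors of the G protein-coupled type that couple mainly to Gi. In carcinoma cells the best studied pair is CXCR4 with its ligand CXCL12, and hypoxia-inducible factors are known activators of CXCR4. CXC ligands with the Glu-Leu-Arg motif, such as CXCL1, CXCL2, CXCL3, CXCL5 and CXCL8, attract neutrophils through CXCR2, and many of their genes are targets of NFkB.

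Values are scaled signals, that is, the processed signal of a probe divided by the 75th percentile of its array and multiplied by 1000. Where 4 signals of a gene are given in a row, they are those of the NS-si, Sp1-si, NS-si → CoCl2 and Sp1-si → CoCl2 arrays, in this order. A gene was called detected on an array when its representative probe was well above background. By this call 25 of the 55 members were detected on all 4 arrays, 7 on some arrays and 23 on none. The 32 members detected at least once made up 58.2%, against 87.0% of all genes with a symbol. On single arrays 28, 29, 29 and 26 members were detected, in the same order of conditions. These were 47.3% to 52.7% of the members, whereas 82.2% to 84.5% of all genes were detected on an array.

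Among ligands, 17 of 39 were detected on all arrays, and 18 on none. These always detected ligands were CCL1, CCL4, CCL15, CCL17, CCL19, CCL20, CCL21, CCL24, CCL25, CCL27, CX3CL1, CXCL1, CXCL2, CXCL3, CXCL5, CXCL8 and CXCL12. Among receptors, 8 of 16 were detected on all arrays, among them CCR1, CCR3, CCR10, CXCR1, CXCR3, CXCR4 and CXCR5. Those never called well above background were CCL2, CCL7, CCL8, CCL11, CCL13, CCL14, CCL16, CCL18, CCL22, CCL26, CCL28, CXCL6, CXCL11, CXCL13, CXCL14, CXCL17, XCL1 and XCL2 among ligands, and CCR2, CCR4, CCR8, CCR9 and CXCR6 among receptors. CCL2, a monocyte attractant, was spotted 10 times on each array, and 1 of its 10 spots was well above background on each. On both treated arrays this spot carried an outlier mark and was left out. A low signal limits these genes to a statement about detection, and none of them was given a ratio. A looser call, a positive and significant signal, would give 47 members detected at least once instead of 32.

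The labels were checked by the gene targeted by the siRNA and by a hypoxia target. SP1 had scaled signals of 484, 35.6, 439 and 30.1, and was thus low on both Sp1-si arrays. VEGFA, a textbook hypoxia target, had 1286, 366, 6492 and 2658, and was higher on the treated array of each pair. All 8 epithelial and clear cell markers were detected on every array, and 2 of them were at least 2-fold lower in Sp1-si cells. These were NAPSA (log2 ratio -2.33 without and -2.39 with CoCl2) and CDH1 (-1.55 and -1.73). Of 9 leukocyte markers, 4 were detected, among them CD3E, CD14 and CD68, whereas PTPRC, CD3D, MS4A1, LYZ and FCGR3A were not. The summed scaled signal of the leukocyte list ranged from 597 in Sp1-si to 1261 in NS-si → CoCl2 cells. CD68 made up much of it and was lower in Sp1-si cells (log2 ratio -1.48 without CoCl2). Of the endothelial markers VWF was detected, and PECAM1 and CDH5 were not. Of 4 fibroblast markers, COL1A1 had no matched spot. COL1A2, DCN and LUM were all detected, with summed signals of 764, 340, 663 and 342 on the 4 arrays. LUM made up most of this sum. All of them were lower in Sp1-si cells, with log2 ratios without and with CoCl2 of -3.10 and -2.92 for COL1A2, -1.07 and -0.85 for LUM, and -0.88 and -0.60 for DCN. The part of any of these in the chemokine ratios was not tested.

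CXCR4, the receptor for CXCL12, had a probe that was spotted 10 times on each array, so that the error of its measurement could be read directly. Its mean scaled signal was 47450, 23728, 94904 and 69176. The spots of the 4 arrays did not overlap, with ranges of 46134 to 49107, 22800 to 24848, 92000 to 97614 and 66207 to 71123 in that order. CoCl2 thus went with a higher CXCR4 signal in both kinds of cells, and Sp1-si with a lower one with and without CoCl2. The log2 ratio of CoCl2-treated over untreated cells was 1.0 ± 0.04 (SD between spots, n = 10 spots) with NS-si and 1.54 ± 0.06 with Sp1-si. The former lay just on the 2-fold limit used for a call, and ranged from 0.77 to 1.01 over the alternative settings. The log2 ratio of Sp1-si over NS-si was -1.0 ± 0.06 without CoCl2, just short of that limit, and -0.46 ± 0.04 with CoCl2. The CoCl2 ratio was therefore larger in the Sp1-si pair by 0.54 ± 0.07 in log2, while the level with CoCl2 stayed below that of NS-si → CoCl2 cells. The spread between spots covers the array measurement only, not the spread between cultures.

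The RefSeq promoter table held 3 windows for CXCR4, each of 250 bases before and 50 bases after a transcript start. The window with the most GC boxes is shown because GC boxes are the sites that Sp1 binds, and hypoxia response elements those of hypoxia-inducible factors. It lies on the minus strand at chr2:136118100-136118399 (GRCh38.p14). Capitals mark the GC box GGGCGG, read on either strand and partly overlapping, and the core of the hypoxia response element, ACGTG or GCGTG.
CXCR4: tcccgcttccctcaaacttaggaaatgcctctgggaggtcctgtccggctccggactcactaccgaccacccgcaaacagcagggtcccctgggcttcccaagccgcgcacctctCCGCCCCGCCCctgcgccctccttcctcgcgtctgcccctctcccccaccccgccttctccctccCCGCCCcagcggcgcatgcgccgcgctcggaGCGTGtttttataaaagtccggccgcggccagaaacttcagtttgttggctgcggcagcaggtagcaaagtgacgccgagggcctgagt
The GC boxes start at -135, -130 and -70 from the transcript start, and the core of the hypoxia response element at -39. Another CXCR4 window held 2 GC boxes and 2 cores, and the remaining one held neither. These letters are common, since 45.0% of all 35116 promoter windows hold the GC box and 48.4% the core. Of the 51 windows found for 41 of the 55 members, 11 (21.6%) held the GC box and 15 (29.4%) the core. A match describes the sequence and was not measured as a binding site in these data.

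CXCL12, the ligand of CXCR4, was also spotted 10 times, and it was dim. Its mean scaled signal was 20.4, 15, 19.4 and 14.6. The ranges of its spots overlapped on all 4 arrays, the lowest reaching 11.2 and the highest 25.8. The highest carried an outlier mark and was left out of the mean. The CoCl2 log2 ratio was -0.07 ± 0.29 with NS-si and -0.03 ± 0.30 with Sp1-si. The Sp1-si over NS-si ratio was -0.44 ± 0.22 without CoCl2 and -0.41 ± 0.35 with it. A further CXCL12 probe, matched to another RefSeq transcript, was at background level on every array. CXCL12 reached a 2-fold ratio in no comparison.

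In NS-si cells, CoCl2 went with at least a 2-fold rise of 3 of 31 members that could be compared, CCL20, CXCL8 and CXCR4, where 4.22% of all genes rose. CXCL2 was the 1 member that fell, where 3.54% of all genes fell. The median log2 ratio over the 26 members detected on both arrays was 0.25, against 0.00 over all genes. In Sp1-si cells, CCL20 and CXCR4 rose among 29 members, with 3.66% of all genes raised, and CXCL1, CXCL2 and CCR1 fell, with 4% of all genes lowered. The median over 26 members was -0.06 there. It was 0.05 with median scaling and 0.08 with quantile normalization, against 0.11 and 0.03 over all genes. Each of these counts rests on 1 to 3 genes.

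CCL20, the ligand of CCR6 that attracts dendritic cells and Th17 cells, had scaled signals of 29.4, 32.6, 98.3 and 88.3. Both treated arrays were above both untreated arrays. The log2 ratio for CoCl2 was 1.74 with NS-si and 1.44 with Sp1-si. Single-spot probes have no spread of their own, and 10-spot probes of like signal had an SD of 0.11 and 0.10 in these 2 comparisons. With normexp, a background correction run on median spot signals and with 50 added to each signal, the ratios were 0.91 and 0.57. Such an addition shrinks the ratios of dim probes by construction. The ratio of Sp1-si over NS-si was 0.15 without and -0.15 with CoCl2. Its receptor CCR6 was near the limit of detection, at 5.13 (not well above background), 7.41, 10.9 and 9.03.

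The neutrophil-attracting CXC ligands lie in a cluster on chromosome 4, together with the platelet factor genes PF4 and PF4V1, which lack the Glu-Leu-Arg motif. The order is CXCL8, CXCL6, PF4V1, CXCL1, PF4, PPBP, CXCL5, CXCL3 and CXCL2. The ratios of the detected neutrophil-attracting ligands under CoCl2 did not go one way. Stretches of 150 bases before the transcript start of the 5 detected members are shown for the letters they share. They are RefSeq sequences of GRCh38.p14, CXCL1 at chr4:73869243-73869392 (plus strand), CXCL2 at chr4:74099196-74099345 (minus), CXCL3 at chr4:74038690-74038839 (minus), CXCL5 at chr4:73998678-73998827 (minus) and CXCL8 at chr4:73740419-73740568 (plus). Capitals mark the NFkB site GGAATTTCC and the GC box GGGCGG, each read on either strand.
CXCL1: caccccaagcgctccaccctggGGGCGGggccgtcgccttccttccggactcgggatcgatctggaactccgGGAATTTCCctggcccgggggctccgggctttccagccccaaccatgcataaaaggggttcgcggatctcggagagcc
CXCL2: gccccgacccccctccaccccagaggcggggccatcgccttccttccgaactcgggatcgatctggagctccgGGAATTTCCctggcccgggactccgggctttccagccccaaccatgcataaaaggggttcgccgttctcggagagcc
CXCL3: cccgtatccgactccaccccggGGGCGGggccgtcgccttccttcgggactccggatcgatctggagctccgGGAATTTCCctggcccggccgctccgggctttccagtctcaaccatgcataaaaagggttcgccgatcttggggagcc
CXCL5: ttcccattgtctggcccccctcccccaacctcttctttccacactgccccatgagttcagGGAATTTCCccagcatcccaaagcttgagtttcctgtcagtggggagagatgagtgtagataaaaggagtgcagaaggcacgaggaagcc
CXCL8: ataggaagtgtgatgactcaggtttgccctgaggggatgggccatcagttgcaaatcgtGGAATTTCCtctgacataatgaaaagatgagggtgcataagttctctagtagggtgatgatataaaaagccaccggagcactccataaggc
The NFkB site starts at -78 in CXCL1, -77 in CXCL2, -78 in CXCL3, -90 in CXCL5 and -91 in CXCL8. These letters were found in 8 of the 51 member windows (15.7%), those of CXCL1, CXCL2, CXCL3, CXCL5, CXCL6, CXCL8, CXCL10 and CXCL11, and in 0.461% of all windows. A GC box starts at -128 in CXCL1 and CXCL3, and the window of CXCL2 held none. The full windows of CXCL1 and CXCL3 were identical at 82.5% of aligned positions, those of CXCL2 and CXCL3 at 73.7%, and those of CXCL1 and CXCL8 at 43.1%. The AP-1 site TGANTCA was in 19.6% of member windows and 7.71% of all windows, and the TATA box TATAAA in 29.4% and 11.5%.

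CXCL1 had scaled signals of 1371, 950, 690 and 378. Both treated arrays were below both untreated arrays. The log2 ratio for CoCl2 was -0.99 with NS-si, just short of 2-fold, and -1.33 with Sp1-si (SD of like probes 0.07 and 0.08). The Sp1-si over NS-si ratio was -0.53 without and -0.87 with CoCl2.

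CXCL2 was measured by 2 probes, both lower on the treated arrays. The representative one had 543, 640, 176 and 153, with CoCl2 log2 ratios of -1.62 and -2.06. The other had 168, 142, 85.3 and 54.8 and ratios of -0.98 and -1.37. Treated arrays were lowest with either probe, and the sign of the Sp1-si ratio without CoCl2 differed between them (0.24 and -0.24).

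For CXCL3 the probes disagreed. The representative probe had 300, 259, 271 and 188, with CoCl2 log2 ratios of -0.15 and -0.47. The other probe had 338, 267, 125 and 69.2, with ratios of -1.44 and -1.95. Only the latter passed 2-fold, and which of them follows the CXCL3 transcript cannot be read from these arrays. CXCL1, CXCL2 and CXCL3 are close paralogs, and whether their probes take up each other's transcripts was not tested, as no probe sequences were used here.

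CXCL5, of the same receptor specificity, stayed near its untreated level. Its scaled signals were 2695, 3346, 3039 and 3728. CoCl2 log2 ratios were 0.17 and 0.16, and the dimmer of its probes gave 0.09 and 0.41. CXCL8 (interleukin-8) went the opposite way to CXCL1 and CXCL2, with 11.1, 11.8, 40.9 and 18.8. The NS-si → CoCl2 array stood above the other arrays, and the Sp1-si → CoCl2 array came next. The CoCl2 log2 ratio was 1.88 with NS-si and 0.67 with Sp1-si, and 10-spot probes this dim had an SD of 0.43 and 0.40. Under normexp the former was 0.60, short of the limit. CXCL6 was not detected. The receptors were faint too. CXCR1, which binds CXCL8, had 13.0, 14.2, 19.0 and 12.8, and CXCR2 was detected on the NS-si array without CoCl2 alone, at 9.38.

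**Figure D1:**
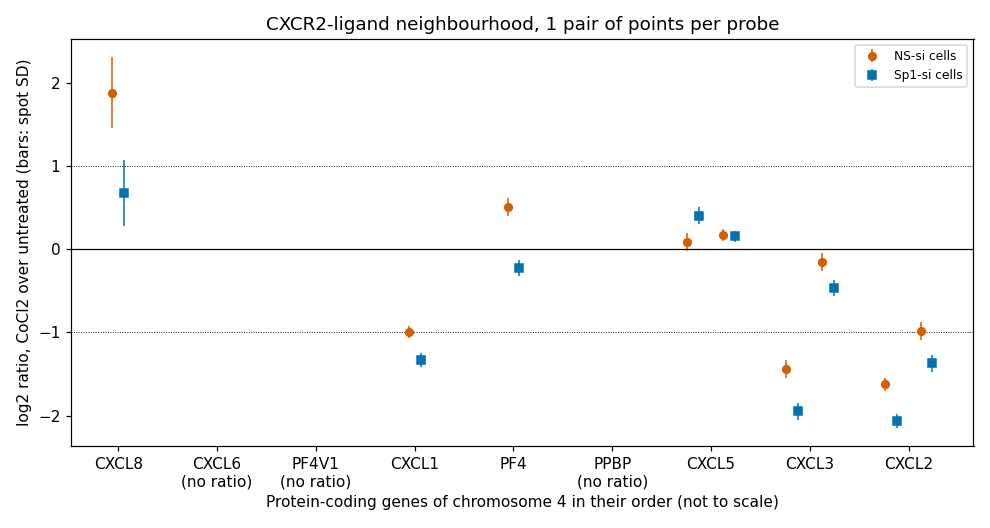
CoCl2 log2 ratios of the CXC ligand genes of chromosome 4, in gene order (not to scale), in NS-si (circles) and Sp1-si cells (squares). Each pair of points is 1 probe detected on all 4 arrays, bars are the SD of 10-spot probes of like signal, and dotted lines mark 2-fold. CXCL8 lay above 0 (1.88 and 0.67), CXCL1 and CXCL2 below it, and the CXCL3 probes apart from each other.

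Without CoCl2, 3 of 31 members had at least 2-fold more signal after Sp1 silencing, CCL25, CCR1 and CX3CL1, where 6.22% of all genes were. No member was 2-fold lower, where 6.17% of all genes were, although CXCR4 was on the limit. With CoCl2, 1 of 29 members was higher (CCL25, 7.15% of all genes) and 1 was lower (CXCL8, log2 ratio -1.12 and under normexp -0.60, 8.07% of all genes). Over the 25 members detected on all arrays, 19 had a ratio below 0 with CoCl2 and 12 without it. Over all 14283 genes detected on all arrays, 51.2% and 50.9% were below 0. The members' median log2 ratio was -0.41 with CoCl2 and 0.01 without, against -0.02 and -0.01 for all genes. All genes were not matched to the members in signal, and the median moved with the scaling. Over the members detected on both arrays with CoCl2 it was -0.34, against -0.02 over all genes. Under quantile normalization these were -0.14 and 0.06.

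CX3CL1 (fractalkine) had scaled signals of 82.7, 224, 101 and 193 with its representative probe. Both Sp1-si arrays were above both NS-si arrays, with log2 ratios of 1.43 without and 0.93 with CoCl2 (SD of like probes 0.11). Its remaining probes did not show this size, with ratios of -0.22 and 0.14 for one and 0.57 and 0.34 for the other, and the mean over all of them gave 0.60 without CoCl2. CCL25, which attracts T cells to gut and thymus through CCR9, had 14.1 and 31.3 without CoCl2 and 17.8 and 36.6 with it. The Sp1-si over NS-si log2 ratios of 1.15 and 1.04 compare with an SD of 0.39 and 0.45 for probes this dim, and were 0.43 and 0.09 under normexp. CCR9 itself was not detected. CXCL10, an interferon-regulated ligand of CXCR3, was detected on the Sp1-si array without CoCl2 alone, at 12.9, which bounds its log2 ratio over NS-si at 0.99 or more, just short of the limit. CCL4, an inflammatory CC ligand, had 96.5 and 65.3 without CoCl2 and 96.1 and 69.1 with it, log2 ratios of -0.56 and -0.47.

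The response to CoCl2 was then set side by side in the NS-si and Sp1-si pairs for the 25 members detected on all arrays. Its difference, the log2 ratio in Sp1-si minus that in NS-si cells, was -1 or lower for 3 of 25 members, CCR1, CXCL8 and CXCR3, where 2.88% of all genes were. No member had a difference of 1 or higher, where 0.973% of genes did. The median difference was -0.30, with 17 of 25 members below 0, and 0.01 over all genes. These 2 CoCl2 ratios share no array, but the difference uses all 4 of them, and with 1 culture each it has no biological error.

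Among the receptors for inflammatory CC chemokines, CCR1 had 40.1, 97.3, 61.3 and 35.5. The Sp1-si array was highest and the Sp1-si → CoCl2 array lowest. CoCl2 log2 ratios were 0.61 and -1.45, a difference of -2.06 ± 0.16 (SD of like 10-spot probes). The other CCR1 probe was dim, at 9.64, 9.03, 10.6 and 5.88, the last not well above background, and so gave no difference of its own. The mean over both gave a CoCl2 ratio in Sp1-si cells of -0.82 and a Sp1-si over NS-si ratio of 0.59, short of the limit. CXCR3, the receptor of interferon-regulated CXC ligands, had 95.9, 138, 146 and 90.4. The Sp1-si and NS-si → CoCl2 arrays were high and the others low, with CoCl2 ratios of 0.61 and -0.61 and a difference of -1.22 ± 0.16. For CXCL8 the difference was -1.21 ± 0.60. Under normexp the differences of CXCR3 and CXCL8 were -0.95 and -0.60, and that of CCR1 was -1.33.

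Differences short of 1 ran the same way for several receptors and were not particular to them, as 17 of the 25 members lay below 0. Among ligands, CCL17 had -0.76 ± 0.60 and CXCL2 -0.44 ± 0.11. CCR3, the eotaxin receptor, had 57.6, 53.1, 66.2 and 40.7 with its representative probe, a difference of -0.58 ± 0.16. Of its remaining probes, the dimmer passed the detection call nowhere, and the brighter only in NS-si → CoCl2 cells, at 12.1. Neither of them gave a difference of its own, so the value for CCR3 rests on the representative probe. CCR10, the receptor of CCL27 and CCL28, had 61.6, 64.6, 87.4 and 64.0, a difference of -0.52 ± 0.16. CXCR4 and CCL24 lay on the opposite side. CCL24 (eotaxin-2, a ligand of CCR3) had 7975, 7433, 9934 and 11357, with CoCl2 ratios of 0.32 and 0.61 and a difference of 0.29 ± 0.09.

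**Figure D2:**
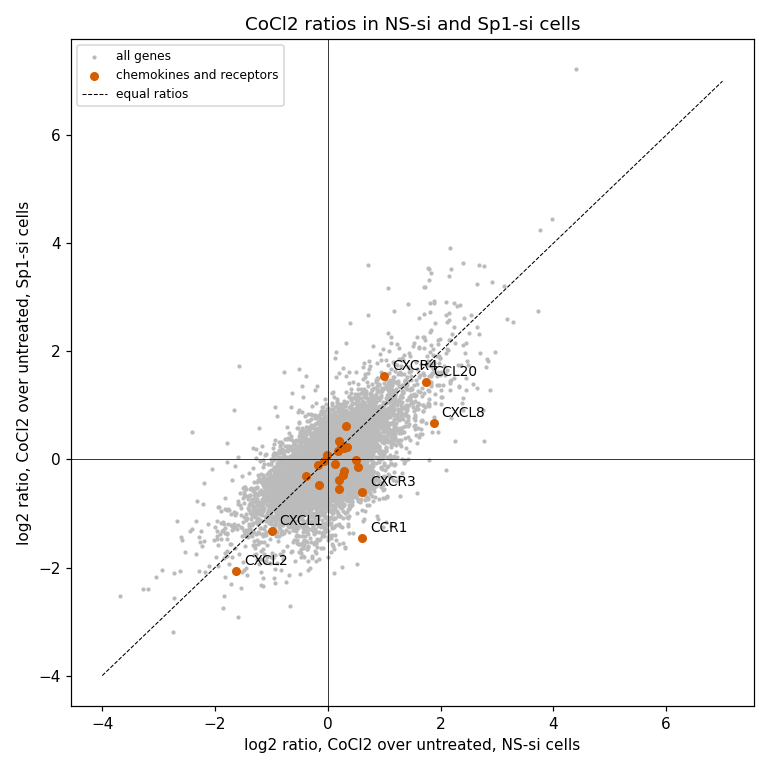
CoCl2 log2 ratio in NS-si cells (x axis) against that in Sp1-si cells (y axis) for all 14283 genes detected on all arrays (grey) and the 25 members among them (orange), with a dashed line of equal ratios. CXCR4 lay above the line, and CCR1, CXCR3 and CXCL8 below it by at least 1.

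The remaining detected members passed no limit. The homeostatic ligands CCL19 and CCL21, which guide cells to lymph nodes through CCR7, had 41.2, 37.3, 50.5 and 43.2, and between 95.6 and 104.5, respectively. CCR7 was dim. It was detected on both NS-si arrays, at 9.10 and 12.6, and on neither Sp1-si array, at 5.81 and 1.90. Its log2 ratio of Sp1-si over NS-si cells was thus only bounded, at -0.57 or lower without CoCl2 and -0.66 or lower with it. Both bounds were short of the limit. CCL17, a ligand of CCR4, had 28.3, 26.2, 32.6 and 17.8, and CCL15, a ligand of CCR1, 30.2, 28.5, 36.4 and 23.3. Their largest log2 ratios were -0.87 for CCL17 and -0.64 for CCL15, of Sp1-si over NS-si cells with CoCl2. The 10-spot probes of their signal class, which reaches down to background level, had an SD of 0.45 there. CXCL12, in the same class, had 0.35 from its own spots. CCL1, CCL27 and CXCR5 kept within 10.3 and 27.7 on all arrays. CCL5 was detected in NS-si → CoCl2 cells alone (8.74), CCL23 on the arrays without CoCl2 (9.71 and 7.65), and CXCL9 in Sp1-si (8.64) and NS-si → CoCl2 cells (10.6). On the arrays where it was not called detected, CXCL9 had 8.77 (NS-si) and 9.95 (Sp1-si → CoCl2), so the call marks no difference in its signal.

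Other genes of the chemokine system were counted in lists. Here and below, a list counts all its measured genes, whereas the shares of all genes are over those that could be compared. In the lists of receptor signalling, processing and display, NFkB targets and interferon-gamma-regulated genes, 3, 2, 4 and 2 genes were detected on no array. Of 13 genes that take part in it but fall outside the naming rule, 7 were detected on all arrays (ACKR2, ACKR4, CMKLR1, MIF, PF4, RARRES2 and XCR1), and none reached 2-fold in any comparison. Of 30 genes of receptor signalling, 26 were detected on all arrays. With CoCl2, none passed 2-fold in NS-si cells and 1 rose in Sp1-si cells (3.66% of all genes rose there). In Sp1-si over NS-si cells, 1 was higher and 1 lower without CoCl2 (6.22% and 6.17% of all genes), and 3 were higher and 2 lower with it (7.15% and 8.07%). GRK2, a kinase that desensitises receptors, rose with CoCl2 in Sp1-si cells (log2 ratio 1.35). With Sp1-si and no CoCl2, GNB1, a G protein beta subunit, was higher (1.33) and ARRB1, an arrestin, lower (-1.27). With CoCl2 these had 1.48 and -1.02, RGS2 had 1.64, GRK5 had 1.28 and the Gi subunit GNAI1 had -1.27.

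Of 16 genes that process or display chemokines, 5 were at least 2-fold lower in Sp1-si cells without CoCl2 and 6 with it, and 1 was higher each time. Over all genes 6.17% and 8.07% were lower, and 6.22% and 7.15% higher. ADAM17 and ADAM10, the proteases that shed fractalkine, had Sp1-si over NS-si log2 ratios of -1.38 and -0.90 without CoCl2 and of -1.79 and -1.24 with it. The heparan sulphate carriers SDC1, SDC3 and SDC4, which hold chemokines at the cell surface, had -1.62, -1.43 and -2.07 without CoCl2 and -1.49, -1.56 and -1.31 with it. Heparanase (HPSE) had 60.1 and 2.97 without CoCl2, the latter not well above background, and 72.3 and 11.0 with it. MMP1, a collagenase, was the gene that was higher (3.74 and 2.54), and it also rose with CoCl2 in NS-si cells (1.62). SDC4 rose with CoCl2 in Sp1-si cells (1.15).

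Of 19 measured targets of NFkB outside the chemokine family, 3 rose and 1 fell with CoCl2 after NS-si, and 1 rose and 1 fell after Sp1-si. Over all genes 4.22% rose and 3.54% fell in the former comparison, and 3.66% and 4% in the latter. TNFAIP3, a feedback inhibitor of NFkB, had CoCl2 log2 ratios of 1.67 and 1.33, and the cytokine IL6 had -1.15 and -1.66. BIRC3 had 1.41 with NS-si and 0.42 with Sp1-si, and IL1A, not well above background without CoCl2, had a bound of 2.26 in NS-si cells. Like the CXC ligands above, these genes therefore included some that rose and some that fell. Sp1-si cells had higher IL6 (1.75 without and 1.24 with CoCl2) and TNF (1.33 and 1.36), and with CoCl2 lower BIRC3 (-1.52) and IL1A (-1.60). Of 17 interferon-gamma-regulated genes, 5 were higher in Sp1-si cells both without and with CoCl2, where 6.22% and 7.15% of all genes were. These were IDO1 (4.78 and 4.13), IRF1 (2.57 and 1.95), SOCS1 (2.59 and 1.52), PSMB8 (1.55 and 1.53) and PSMB9 (1.03 and 1.1). IDO1 and SOCS1 fell with CoCl2 in Sp1-si cells (-1.22 and -1.5). Of the interferon-regulated chemokines, CXCL10 was detected on the untreated Sp1-si array alone, CXCL9 stayed near the limit of detection and CXCL11 was not detected.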

How the data were processed

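Single-colour Agilent whole human genome arrays were scanned and read by the authors with Feature Extraction 10.5.1.1, per the file headers. The deposited intensity is the processed signal of each spot, background-subtracted by that software and not scaled between arrays. The deposited table of values was, on each array, these intensities multiplied by 1 constant.

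Control spots and spots with an outlier mark (66 to 73 per array) were left out, log2 was taken, and the 75th percentile of each array was subtracted (1143, 1100, 977 and 1287 in NS-si, Sp1-si, NS-si → CoCl2 and Sp1-si → CoCl2 cells). Spots of a probe were averaged, and a probe was detected where at least 50% of its spots were well above background. Between 33081 and 34542 spots were well above background, and none was saturated. Of 29877 spots with a RefSeq accession, 28463 matched 1 symbol, and the probe with the highest mean log2 signal stood for a gene.

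A ratio is the log2 difference of 2 arrays. Where 1 array was not detected it is a bound, set against the higher of its own signal and the lowest signal well above background. A call needs 2-fold. The error of a ratio combines the SDs between spots on its arrays, as the root of their summed squares. A probe with 10 spots uses its own. Any other probe takes the median of its signal class, from 264 probes with 10 spots in 5 classes. This error covers the array measurement only. The software was Python 3.11.15 with numpy 2.4.6 and pandas 2.3.3, and R 4.3.3 with limma 3.58.1. Detected members are named, and of the other lists those genes past 2-fold. Some items are counted but not reported here by name. The members and lists were chosen with earlier results of these data known. Array gene names follow an older annotation, and promoter sequences are from RefSeq.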

Additional observations from a re-analysis of the deposited data

Results flagged for a closer look

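The log2 ratio of CoCl2-treated over untreated cells had opposite signs in NS-si and Sp1-si cells for 3 members, each ratio being over 2 SDs between spots from 0. The difference, Sp1-si minus NS-si, was -2.06 for CCR1 and -1.22 for CXCR3. For CX3CL1 it was -0.50, from ratios of 0.29 and -0.22 with the representative probe, whereas another CX3CL1 probe of like signal had 0.21 and 0.57, a difference of 0.36 with no change of sign, and the remaining one -0.23. None of these differences was tested, since each condition was 1 array.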

How the results depend on the processing

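No paired analysis was possible because each condition had 1 array. None of the 17 called ratios changed sign under any alternative, but the counts of members past the limit moved. Below, NS-si and Sp1-si name the CoCl2 comparisons, and "without" and "with" (CoCl2) those of Sp1-si over NS-si. Scaling to the percentile of detected probes gave 2 raised and 2 lowered in NS-si, and 1 lowered without. Median scaling gave 2 raised with. Quantile normalization gave 2 raised and 2 lowered in NS-si, and 2 raised and 0 lowered with. No scaling gave 2 raised and 2 lowered in NS-si, 1 lowered without, 2 raised and 0 lowered with, and 1 member with a difference of -1 or lower, and it moved the median of all genes by -0.23 in NS-si, 0.23 in Sp1-si and 0.40 with. The deposited value table gave 2 raised and 2 lowered in NS-si. CXCR4 was the raised member lost under each of these settings with 2 raised in NS-si, its lowest ratio being 0.77 with no scaling. The looser detection call (positive and significant signal) gave 47 detected members instead of 32, 5 raised and 2 lowered in NS-si, 7 lowered in Sp1-si, 6 raised and 2 lowered without, and 2 raised and 4 lowered with. The mean over a gene's probes gave 1 raised without, CX3CL1 having 0.60 and CCR1 0.59. A 1.5-fold limit gave 6 raised and 2 lowered in NS-si, 4 and 5 in Sp1-si, 2 lowered without, 2 raised and 8 lowered with, and 5 differences. Normexp on median signals with an offset of 50, chosen after seeing the data because the files hold no mean signals for the planned one, gave 0 raised in NS-si, 1 in Sp1-si, 1 without, 0 raised and 0 lowered with, and 1 difference. It left 6 of the 17 ratios past 2-fold, with CCL20 at 0.91 and 0.57, CXCL8 at 0.60 in NS-si and CCL25 at 0.43 and 0.09. The offset shrinks the ratios of dim members by construction, and its part was not separated from that of the correction or of the median signals. The cause of the other changes was not tested.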
